A study of Zea mays with 12 samples.

Results

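The genes described here are the maize NAC transcription factor family, taken as every row of the deposited tables whose gene description lists the NAC domain (Pfam PF02365), apart from 6 genes of the KIL and NAC087-like kind that were left out. The rule gave 151 genes among 157 with the domain and 45246 rows in all, and the rule itself used no measured value. The study had examined the 6 genes left out in these same libraries, and all 6 were higher 24 h after pollination. The shares below are for the family without them. The study isolated synergid cells, the 2 accessory cells beside the egg cell, by hand from unpollinated ovules of the inbred line B73 (SC, 0 h after pollination, HAP). It then isolated the persistent synergid cell, which did not receive the pollen tube, at 12, 18 and 24 HAP (pSC12, pSC18 and pSC24), the last stage lying shortly before the cell disappears. Every stage had 3 libraries of the same genotype, each made from amplified cDNA of 25 to 28 pooled cells. The comparison asked which NAC genes change in level while the persistent synergid cell degenerates.

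NAC proteins bind DNA through a conserved N-terminal domain and usually activate transcription through a variable C-terminal region. Some are anchored to membranes and enter the nucleus after the anchor is cut or released. Members of the family are best known for control of leaf senescence, of secondary wall formation and death in vessel elements, of organ boundaries, of root cap maturation and of responses to stress. The deposited tables give most genes the name of the protein that matched best, mostly from Arabidopsis or rice. These names are used below for reference, and roles stated for them are those of the named protein in its own species. Of the 151 genes, 148 are annotated as protein coding and 27 carry no best match. The others fall into 47 best-match names.

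Library totals ran from 15435736 counts in pSC18 to 26539602 counts in pSC12. The synergid marker ZmES4 was between 6018 and 13051 FPKM (a level scaled by gene length and library depth) in all 12 libraries. The other marker, the MYB98-like gene Zm00001eb212880, was detected in all of them and lower at later stages, with 1048 to 1205 FPKM in SC, 572.2 to 648.3 in pSC12, 355.8 to 474.8 in pSC18, then 55.2 to 178.6 in pSC24. Egg cell-secreted protein genes summed to 172.0 to 428.2 FPKM in SC, 47.2 to 67.9 in pSC12, 67.5 to 199.2 in pSC18, then 42.8 to 119.3 in pSC24. Chlorophyll a/b binding protein genes, 39 in number, summed to 8.93 to 22.5 FPKM over all libraries. Of 26 genes named as zeins, the storage proteins of the endosperm, 25 had 0 counts in all libraries. The other, the 16 kDa gamma-zein gene Zm00001eb099950, had 0 FPKM in 8 of the 9 libraries of SC, pSC12 and pSC18, 0.346 FPKM in pSC18 replicate 2, and 61.1, 75.3 and 149.5 FPKM in the 3 pSC24 libraries. Its part in the pSC24 results below was not tested. In pooled cells, a share of cells of another kind and a change of RNA within the synergid cell cannot be told apart. The libraries form a lower and a higher mapping set by their share of mapped reads. Every library of SC and of pSC18 falls in the lower set with pSC24 replicate 1, and pSC12 falls in the higher set with pSC24 replicates 2 and 3. A term for the mapping set thus takes the pSC24 level from replicate 1 alone in comparisons with SC or pSC18. Where pSC12 is compared with SC or pSC18, stage and mapping set cannot be told apart.

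Most NAC genes were low or undetected in synergid cells. In all 12 libraries 67 of the 151 genes had 0 counts, and a further 39 had counts but no stage mean above 1 FPKM. The remaining 45 genes (29.8%) had a stage mean above 1 FPKM, beside 41.2% of all rows of the table. A stage mean of at least 5 FPKM was reached by 23 genes and of at least 10 FPKM by 14 genes. Above 1 FPKM there were 29 genes in SC, 25 in pSC12, 30 in pSC18, then 40 in pSC24, and 22 genes passed in all stages. Among the 45, SC held the highest stage mean for 5, pSC12 for 10, pSC18 for 5 and pSC24 for 25. The pSC24 share was thus 55.6%, beside 35.6% of the 18657 rows of the whole table above 1 FPKM. A gene can pass 1 FPKM through its highest stage alone, which then fixes its place in this tally, so the share is not a test.

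**Figure D1:**
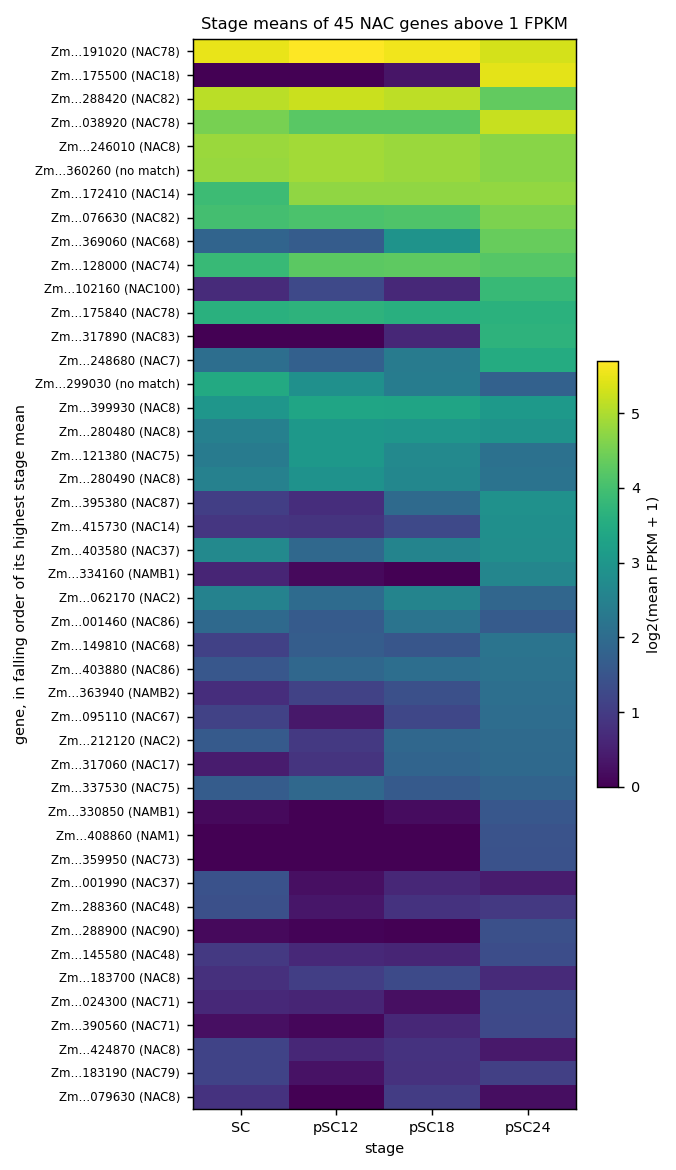
Stage means of the 45 NAC genes with a mean above 1 FPKM in at least 1 stage, as log2(FPKM + 1) in colour, with genes in rows by falling highest stage mean and the 4 stages in columns. Labels give the last digits of the identifier and the best match. The upper rows hold genes bright in every column, and several dark rows brighten only in the pSC24 column, such as Zm00001eb175500 and Zm00001eb317890.

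Summed over the 151 genes, the NAC transcript level was 280.9 ± 12.2 FPKM in SC (SD, n = 3), 302.9 ± 19.7 in pSC12, 311.5 ± 26.8 in pSC18, compared with 413.6 ± 18.5 in pSC24. The pSC24 libraries (393.1 to 429.1 FPKM) lay above all other libraries (268.0 to 334.8 FPKM). The sum was 102.0 FPKM higher in pSC24 than in pSC18, a net value in which the 5 largest rises came to 98.0, and the smaller rises and the falls of the other genes nearly cancelled. The NAC18-like gene Zm00001eb175500 alone contributed 42.6. For scale, the 6 genes left out summed to 1.57 to 3.08 FPKM in SC, 0.639 to 3.85 in pSC12, 20.0 to 44.3 in pSC18, then 256.1 to 290.7 in pSC24.

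Stage differences in the counts were tested with edgeR (quasi-likelihood). A gene was called where the Benjamini-Hochberg adjusted p was under 0.05 over all 21143 genes tested and the log2 fold change was over 1 in size. After edgeR's filter on low counts 49 of the 151 NAC genes (32.5%) were tested, beside 46.7% of all rows, and the other 102 were too low. A gene can pass this filter through the stage where it is high. Of the 49, 12 were called in at least 1 of 5 comparisons and 37 in none.

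No NAC gene was called between SC and pSC12 or between pSC12 and pSC18. In pSC12 against SC, 1.62% of all tested genes were called higher and 1.18% lower. At an unadjusted p under 0.05, 4 of the 49 NAC genes were higher and 2 lower (8.16% and 4.08%, beside 9.92% and 10.2% of all genes), and their median log2 fold change was −0.11, beside −0.01 over all genes. With DESeq2 0 were called higher and 1 lower, the NAC8-like gene Zm00001eb079630. In pSC18 against pSC12, 0.0189% of all genes were called higher and 0.00473% lower. At the unadjusted threshold 7 NAC genes were higher and 1 lower (14.3% and 2.04%, beside 7.91% and 4.73%), with a median of 0.37 beside 0.03. With DESeq2 0 were called lower and 1 higher, again Zm00001eb079630. It had 38, 19 and 5 counts in SC, 0 in all 3 pSC12 libraries and 56, 3 and 22 in pSC18, and the edgeR adjusted p of these differences was 0.0688 and 0.177, with ranges over all alternatives of 0.00309 to 0.293 and 0.00553 to 0.559.

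In pSC18 against SC, 1 of 49 NAC genes (2.04%) was called higher and 0 lower. The shares over all genes were 2.71% and 1.6%, the median log2 fold change was 0.16 beside 0.05, and at an unadjusted p under 0.05, 5 were higher and 3 lower (10.2% and 6.12%, beside 12.9% and 10.9%). DESeq2 likewise called 0 lower.

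From pSC18 to pSC24, 7 NAC genes rose (14.3%) and 0 fell, beside 4.82% and 3.26% of all genes. The median log2 fold change was 0.27 beside −0.01 over all genes, and at an unadjusted p under 0.05, 11 NAC genes were higher and 4 lower (22.4% and 8.16%, beside 13.99% and 14.5%). DESeq2 also called 0 lower. Without pSC24 replicate 2 the number that rose was 4. A term for the mapping set leaves pSC24 replicate 1 alone in this comparison, so its count is not given. In pSC24 against SC, 9 rose (18.4%) and 1 fell (2.04%), beside 10.3% and 7.57% of all genes, and the median was 0.52 beside 0.05. At the unadjusted threshold 14 NAC genes were higher and 3 lower (28.6% and 6.12%, beside 20.0% and 17.8%). These comparisons share the pSC24 libraries, and 3 genes were called lower than in SC without pSC24 replicate 3.

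**Figure D2:**
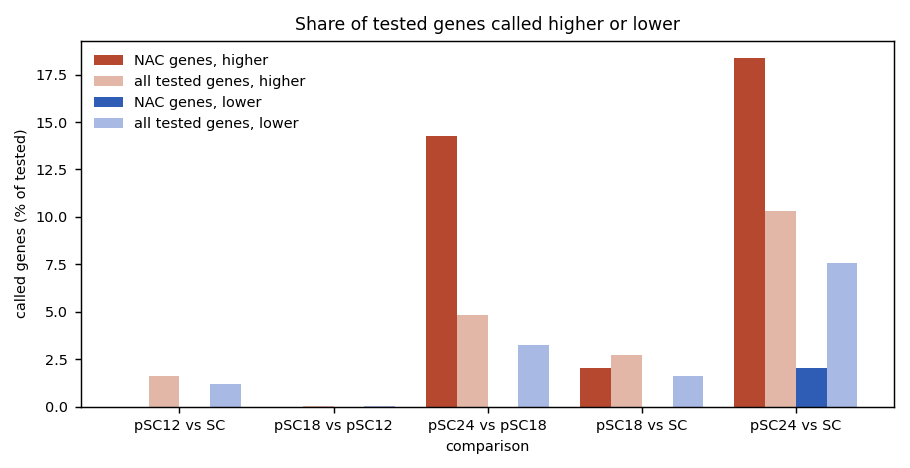
Share of tested genes called higher (red) or lower (blue) in each stage comparison, for the 49 tested NAC genes (dark bars) and all 21143 tested genes (pale bars), in percent from 0. In pSC24 the NAC genes reach 14.3% higher against pSC18 and 18.4% against SC, and the dark blue bars are at or below 2.04%.

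Among the 151 genes, the largest change in level belonged to Zm00001eb175500, on chromosome 4 from 49282779 to 49285404 of the maize B73 assembly NAM-5.0. Its best match NAC18 (NARS2 in Arabidopsis) acts with NARS1 in the integument of the developing seed. It had at most 0.0389 FPKM in SC, 0 in pSC12, and 0, 0.728 and 0 in pSC18, then 36.0, 31.8 and 60.8 in pSC24. Its pSC18 reads came from replicate 2 alone, which was also the only library before pSC24 with gamma-zein counts, and a link was not tested. The pSC24 libraries lay far above all 9 others, and of the 151 genes this one had the highest mean level at that stage. It was at least 344.7-fold higher than in SC, taking a floor of 3 counts per SC library (adjusted p = 0.000105). Against pSC18 the log2 fold change was 7.38 (SE 0.91, adjusted p = 0.000749). The gene most like NARS1, the NAC56-like Zm00001eb405590, was low throughout, with 0 counts in SC, pSC12 and pSC18 and 12, 0 and 18 counts in pSC24.

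Zm00001eb317890, on chromosome 7 from 143327976 to 143329299, matches NAC83 (VNI2), which in Arabidopsis represses vessel formation and acts in leaf ageing. It was at 0 in SC and pSC12, at 0, 1.69 and 0 FPKM in pSC18, then at 5.39, 4.02 and 25.8 in pSC24. It was at least 60.0-fold higher in pSC24 than in SC (adjusted p = 0.0137), with the highest value in pSC24 replicate 3. Of the pSC24 libraries this one was also the highest for gamma-zein, for ZmES4 (13013.9 FPKM) and for the MYB98-like gene (178.6 FPKM). A link between these levels was not tested. Leaving this library out of the mean put the bound at 24.2-fold. The call was lost with a term for the mapping set (adjusted p = 0.0638) and with the lower set alone, and over all alternatives the adjusted p ran from 0.00278 to 0.103. Against pSC18 it was not called (adjusted p = 0.113) but was without pSC18 replicate 2 (adjusted p = 0.0166), again the only pSC18 library with counts, and over all alternatives the adjusted p ran from 0.0166 to 0.549.

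Zm00001eb102160, on chromosome 2 from 196795311 to 196797514, matches NAC100, a target of the microRNA miR164 in Arabidopsis. Its levels were 1.08, 0.470 and 0.334 FPKM in SC, 1.01, 1.12 and 2.09 in pSC12, 1.25, 0.432 and 0.0737 in pSC18 against 10.05, 19.3 and 10.5 in pSC24. No pSC24 library overlapped the others. The log2 fold change was 4.52 against pSC18 (SE 0.77, adjusted p = 0.00249) and 4.38 against SC (SE 0.77, adjusted p = 0.00109). The pSC18 call was lost only with the lower mapping set alone, which leaves 1 library of pSC24 and gave a log2 fold change of 4.10. Against pSC18 the adjusted p ran from 0.00221 to 0.0140 with each library left out in turn, and the lowest over all alternatives was 1.18e-08. The 5 other genes named for NAC100 had no stage mean above 1 FPKM.

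Both genes matching the rice protein NAC68 rose. Zm00001eb369060, on chromosome 8 from 177358893 to 177360985, had 2.22, 4.06 and 1.501 FPKM in SC, 0.888, 2.54 and 2.99 in pSC12, 3.94, 2.60 and 13.1 in pSC18, then 28.2, 12.2 and 18.3 in pSC24. It was higher in pSC24 than in SC by 2.91 on the log2 scale (SE 0.64, adjusted p = 0.00464). The high value of pSC18 replicate 3 overlapped pSC24. Against pSC18 the adjusted p was 0.103 with all libraries and 0.0143 without that library, and ran from 0.0143 to 0.270 over all alternatives. The weaker Zm00001eb149810 went from 1.53, 0.965 and 0.955 FPKM in SC to 2.32, 4.51 and 3.82 in pSC24, a log2 fold change of 1.61 (SE 0.46, adjusted p = 0.0205). This call was lost without SC replicate 2, without SC replicate 3 and without pSC24 replicate 2 (adjusted p = 0.0736, 0.0745 and 0.0803). It was also lost without the filter on low counts (0.0569), with the lower mapping set alone and with the mapping-set term, which put the log2 fold change at 1.003 (0.307), and over all alternatives the adjusted p ran from 0.00163 to 0.425.

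Among genes named after membrane-anchored NAC proteins, those matching NAC14, NAC17 and NAC78 included called genes. Zm00001eb415730, on chromosome 10 from 79408281 to 79412754, matches NAC14. It stood at 0.684, 1.04 and 0.866 FPKM in SC, 0.847, 0.838 and 0.710 in pSC12, 1.49, 0.854 and 1.80 in pSC18, then 4.47, 6.99 and 7.05 in pSC24. The pSC24 values exceeded those of every other library. The log2 fold change was 2.82 against SC (SE 0.34, adjusted p = 7.57e-05) and 2.14 against pSC18 (SE 0.33, adjusted p = 0.00126). With the lower mapping set alone, which leaves 1 library of pSC24, the latter call was lost at a log2 fold change of 1.68. Against pSC18 the adjusted p ran from 0.00177 to 0.00713 with each library left out in turn, and the lowest over all alternatives was 1.17e-08.

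The other NAC14-like gene, Zm00001eb172410, was higher at every stage after pollination with edgeR, by less than the fold for a call. It had 13.1, 12.7 and 16.0 FPKM in SC, 22.9, 23.1 and 31.2 in pSC12, 31.9, 27.4 and 18.9 in pSC18 against 32.0, 27.5 and 18.99 in pSC24, so that no SC library overlapped a later stage. The log2 fold change against SC was 0.89 in pSC12 (SE 0.23, adjusted p = 0.0410), 0.90 in pSC18 (adjusted p = 0.0296) and 0.90 in pSC24 (adjusted p = 0.0113). Scaling by total counts, which raised the median of all genes by 0.27 on the log2 scale in pSC12 against SC, gave 1.18 in pSC12 and a call. In pSC24 against SC the gene was also called with scaling by total counts (1.14), without SC replicate 3 (1.04) and without pSC24 replicate 3 (1.09). The mapping-set term and the lower mapping set alone, which take the pSC24 level from replicate 1, gave 1.19 and 1.20. In pSC18 against SC the gene was called with scaling by total counts (1.10) and without pSC18 replicate 3 (1.09). Over the alternatives the adjusted p ran from 0.00412 to 0.167 in pSC12, from 0.00229 to 0.127 in pSC18 and from 0.000866 to 0.0502 in pSC24, and each difference missed the threshold in at least 1 of them.

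Zm00001eb317060 matches NAC17, which in Arabidopsis sits in the endoplasmic reticulum membrane and carries signals from impaired mitochondria to the nucleus. It was the only one of the 151 NAC genes called in pSC18 against SC with the main settings. Its levels were 0.281, 0.246 and 0.512 FPKM in SC, 1.21, 0.192 and 1.04 in pSC12, 1.10, 1.79 and 4.82 in pSC18, then 3.20, 3.75 and 1.64 in pSC24. All libraries of pSC18 and pSC24 lay above all of SC. The log2 fold change against SC was 2.87 in pSC18 (SE 0.74, adjusted p = 0.0315) and 3.02 in pSC24 (SE 0.74, adjusted p = 0.00917). The pSC18 call was lost without any single SC library and without pSC18 replicate 2 or 3 (adjusted p = 0.112, 0.121, 0.0710, 0.0501 and 0.120), and over all alternatives its adjusted p ran from 0.00146 to 0.121. The pSC24 call was kept in all of them.

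The 3 genes matching NAC78, which in Arabidopsis activates proteasome subunit genes, were all well expressed and did not move alike. Zm00001eb191020 was the highest NAC gene in SC, pSC12 and pSC18. It had 45.6, 46.5 and 40.7 FPKM in SC, 51.4, 53.7 and 47.3 in pSC12, 46.2, 46.0 and 47.7 in pSC18, then 43.2, 38.6 and 36.4 in pSC24, with no call (log2 fold change −0.18 in pSC24 against SC, SE 0.11, adjusted p = 0.248). Zm00001eb175840 had stage means between 11.03 and 11.8 FPKM and was not called either.

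The NAC78-like gene Zm00001eb038920, on chromosome 1 from 207741827 to 207746876, had 21.2, 23.7 and 20.9 FPKM in SC, 18.9, 15.5 and 18.8 in pSC12, 19.3, 16.0 and 17.9 in pSC18 against 41.4, 38.4 and 29.2 in pSC24. All pSC24 libraries lay above the other 9. Against pSC18 it rose by 1.02 on the log2 scale (SE 0.15, adjusted p = 0.00114), at the edge of the required fold. Without pSC24 replicate 1 the log2 fold change was 0.91 (adjusted p = 0.00423) and without pSC24 replicate 2 it was 0.98 (adjusted p = 0.00575), under that fold. The adjusted p stayed between 6.14e-09 and 0.0123 over all alternatives. Against SC it was higher by 0.72 (adjusted p = 0.00373), again under the required fold.

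**Figure D3:**
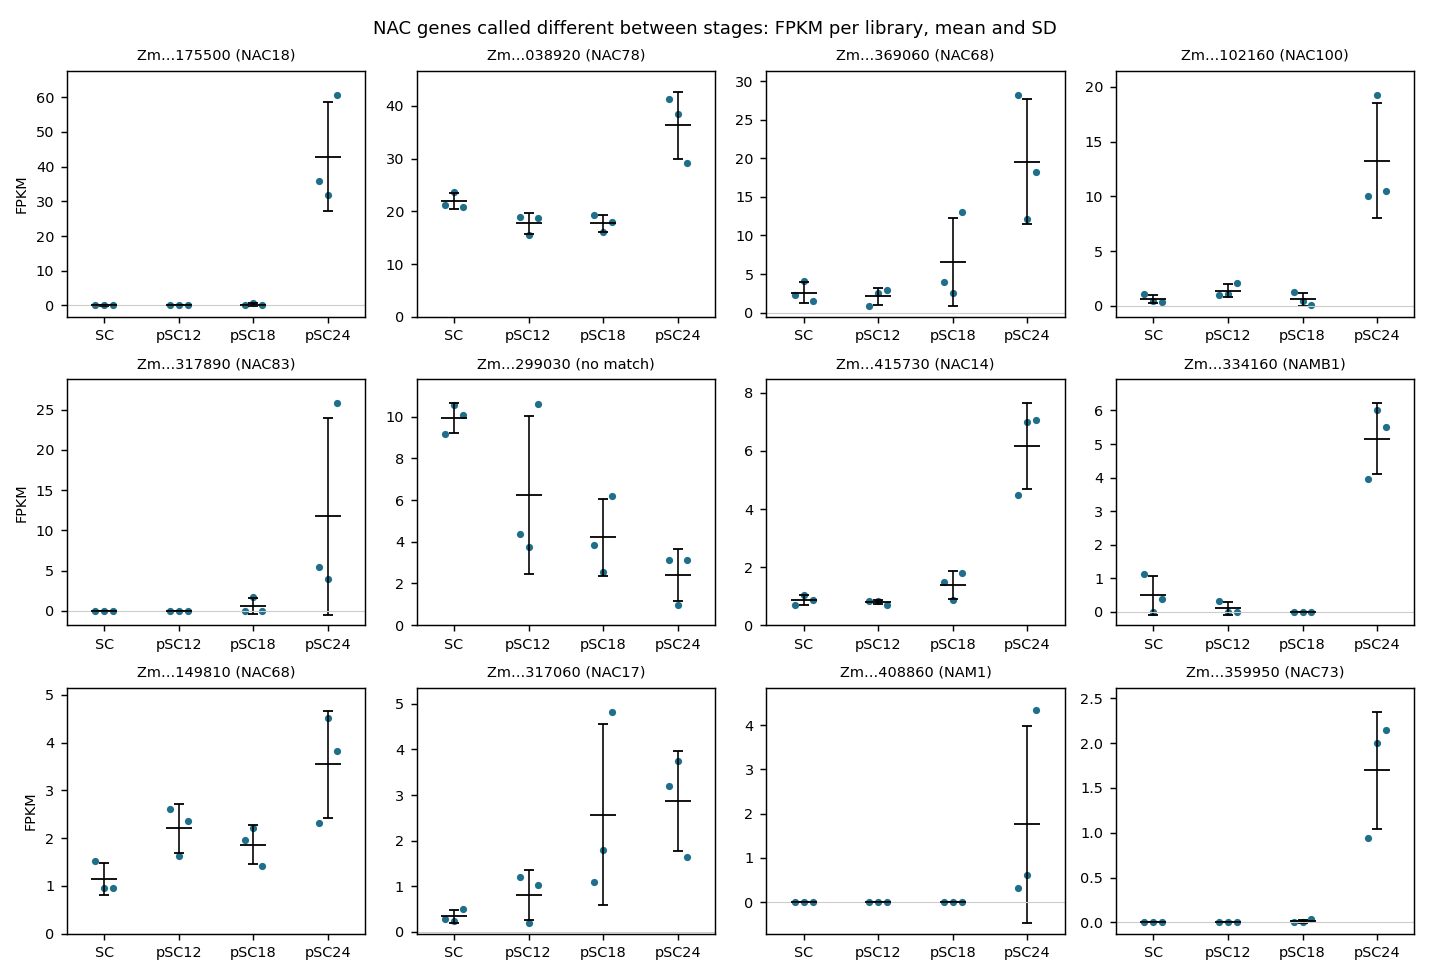
FPKM of the 12 called NAC genes in each library (points), with the stage mean (bar) and SD (whiskers, n = 3), 1 panel per gene on linear axes. Panels give the last digits of the identifier and the best match. Most panels show low points up to pSC18 and higher points in pSC24, with pSC24 replicate 3 far above the other replicates for NAC83 and NAM1. The unmatched gene Zm00001eb299030 falls from between 9.18 and 10.6 in SC to between 0.957 and 3.14 in pSC24.

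Genes named after the senescence regulators NAM-B1, NAM-B2 and NAM-1 of barley and wheat numbered 8, of which 4 had a stage mean above 1 FPKM. In wheat NAM-B1 speeds leaf senescence and the movement of nutrients to the grain. Zm00001eb334160, on chromosome 8 from 7439793 to 7442406, had 1.13, 0 and 0.370 FPKM in SC, 0.331, 0 and 0 in pSC12, 0 in every pSC18 library and 3.97, 6.02 and 5.50 in pSC24. It was at least 53.3-fold higher in pSC24 than in pSC18 (adjusted p = 0.0152). With a term for the mapping set the call was lost (adjusted p = 0.0689), and over all alternatives the adjusted p ran from 0.00263 to 0.0852. The difference from SC was not called (log2 fold change 3.34, SE 1.47, adjusted p = 0.121).

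Zm00001eb408860, which matches barley NAM-1, had 0 counts in the 9 libraries before pSC24 and 13, 30 and 187 counts there, or 0.331, 0.614 and 4.33 FPKM. It was at least 17.4-fold higher than in SC (adjusted p = 0.0207) and at least 19.4-fold higher than in pSC18 (adjusted p = 0.0341). Without pSC24 replicate 3 the bounds were 4.72-fold and 5.23-fold and the adjusted p 0.103 and 0.149. The pSC18 call was also lost without pSC18 replicate 1, 2 or 3 or pSC24 replicate 2 (adjusted p = 0.0741, 0.0721, 0.0688 and 0.0585) and with a replicate block (0.0640), and both calls were lost with DESeq2 and with the mapping-set term. The SC call was lost without SC replicate 1, 2 or 3 (adjusted p = 0.0506, 0.0517 and 0.0520). Over all alternatives they ran from 0.0112 to 0.138 against SC and from 0.0187 to 0.181 against pSC18.

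The remaining senescence-type genes were not called with edgeR. The NAM-B2-like gene Zm00001eb363940 had 6.15, 0.470 and 3.05 FPKM in pSC24 and 0.498, 0 and 4.37 in pSC18, which overlap in part. The NAM-B1-like gene Zm00001eb330850 had 4.16, 0 and 1.63 FPKM in pSC24 and at most 0.405 in any earlier library, and it was present in only 2 of the 3 pSC24 libraries. Zm00001eb395320, most like the Arabidopsis senescence activator NAP (NAC29), stayed at or under 1.11 FPKM in every library. It was called higher in pSC24 than in pSC18 with DESeq2 (adjusted p = 0.0133) but not with edgeR (adjusted p = 0.0846), and over all alternatives the adjusted p ran from 0.0133 to 0.320. Of 5 genes matching JUB1 (NAC42), a repressor of senescence in Arabidopsis, 4 had 0 counts throughout and the other had stage means up to 0.8996 FPKM.

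Genes named after regulators of vessel and fibre walls were mixed. The vessel-type names NAC7, NAC30 and NAC37 (VND proteins) covered 8 genes, 3 of them at 0 counts and 3 above 1 FPKM. Zm00001eb248680, a NAC7-like gene, had 0.878, 2.59 and 6.003 FPKM in SC, 3.63, 2.47 and 1.02 in pSC12, 4.87, 4.69 and 2.94 in pSC18, then 13.2, 10.9 and 6.78 in pSC24. The pSC24 libraries lay above the rest, but the difference from SC missed the threshold (log2 fold change 1.68, SE 0.60, adjusted p = 0.0545). Without SC replicate 3 it passed (adjusted p = 0.0134), with a range of 0.0134 to 0.150 over all alternatives. It also passed with DESeq2 (0.0198), scaling by total counts (0.0284), no filter on low counts (0.0451) and without pSC12 replicate 3 (0.0416). Over 197 bases the gene overlaps a neighbour on the other strand that had a stage mean of up to 3.87 FPKM. The libraries are not stated to be stranded, so reads of the shared stretch cannot be told apart. Zm00001eb403580, a NAC37-like gene, had 5.01, 6.70 and 4.46 FPKM in SC and 3.45, 8.81 and 5.77 in pSC24.

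Of 4 genes matching NST1 (NAC43), which switches on fibre walls in Arabidopsis, 2 had 0 counts and none exceeded 0.0651 FPKM as a stage mean. Of 4 genes matching SND2 (NAC73), a downstream regulator of secondary walls, 1 was above 1 FPKM. This gene, Zm00001eb359950, had 0 counts in SC and pSC12, 0, 0 and 1 count in pSC18, then 28, 74 and 70 counts in pSC24, or 0.941, 2.0001 and 2.14 FPKM. It was at least 12.8-fold higher than in SC (adjusted p = 0.00680) and at least 14.2-fold higher than in pSC18 (adjusted p = 0.0214). The pSC18 call was lost without pSC18 replicate 1 or 2 or pSC24 replicate 2 or 3 (adjusted p = 0.0763, 0.0717, 0.0711 and 0.0719), and with the mapping-set term (0.116). Over all alternatives its adjusted p ran from 0.00413 to 0.316.

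Among the NAC genes left in the set, 2 match NAC87, the Arabidopsis protein that acts in root cap cell death together with further NAC factors. Zm00001eb395380 had 0.849, 1.68 and 0.678 FPKM in SC, 0.159, 0 and 1.86 in pSC12, 0.334, 1.75 and 6.72 in pSC18 against 9.24, 3.11 and 6.70 in pSC24. The pSC24 libraries lay above those of SC but the difference was not called (log2 fold change 2.56, SE 1.25, adjusted p = 0.156). Fitting only the SC and pSC24 libraries in edgeR gave a call (adjusted p = 0.00672), and the range over all alternatives was 0.00672 to 0.316. The other, Zm00001eb334180, had 7 counts in a single pSC24 library. The 6 genes named after FEZ and the BEARSKIN proteins, regulators of the root cap, had no stage mean above 0.764 FPKM.

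The 3 genes matching the sieve element factor NAC86, which acts in the loss of the nucleus in Arabidopsis phloem, showed no call. Zm00001eb001460 had 1.32 to 4.14 FPKM in SC and 1.88 to 2.38 in pSC24, and Zm00001eb403880 had 0.986 to 2.68 and 2.57 to 4.81. Of the 8 genes matching the organ boundary proteins CUC2 and CUC3, 7 had 0 counts and the other had 2 counts in 1 library.

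The genes matching NAC8, which is SOG1, the Arabidopsis regulator of the response to DNA damage, formed the largest named group with 9 genes, of which 7 exceeded 1 FPKM and 2 had 0 counts. None was called with edgeR. With DESeq2 Zm00001eb079630 was, as given above, and Zm00001eb424870 was called lower in pSC24 than in SC (adjusted p = 0.0281, beside 0.0857 with edgeR, and from 0.0281 to 0.281 over all alternatives). Zm00001eb246010 had 26.6, 27.7 and 28.8 FPKM in SC, 28.6, 25.4 and 32.7 in pSC12, 31.5, 27.9 and 23.4 in pSC18, then 29.6, 22.6 and 21.3 in pSC24. All stages overlapped, and the log2 fold change of pSC24 against SC was −0.19 (SE 0.16, adjusted p = 0.427). The next, Zm00001eb399930, had stage means between 6.95 and 9.24 FPKM. The genes Zm00001eb280480 and Zm00001eb280490 had 4.15 to 5.03 and 4.01 to 5.91 FPKM in SC and 5.90 to 7.85 and 3.02 to 3.89 in pSC24, so their pSC24 libraries lay above and below those of SC respectively. Neither difference passed the test (log2 fold changes of 0.52, SE 0.22, adjusted p = 0.110, and −0.43, SE 0.23, adjusted p = 0.185).

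The 2 genes matching NAC82, which in Arabidopsis mediates the response to impaired ribosome assembly, were among the 10 highest NAC genes in SC. Zm00001eb288420 had 37.0, 30.3 and 32.5 FPKM in SC, 32.2, 31.3 and 46.7 in pSC12, 35.7, 32.0 and 34.2 in pSC18, then 15.6, 17.8 and 24.2 in pSC24. Its pSC24 libraries all lay below the other 9. The log2 fold change was −0.84 against pSC18 (SE 0.18, adjusted p = 0.00957) and −0.81 against SC (adjusted p = 0.00558), under the fold for a call. Against pSC18 it passed that fold with the mapping-set term (−1.12), with the lower mapping set alone (−1.13) and without pSC24 replicate 3 (−1.03). Against SC it also passed in the same settings (−1.10, −1.09 and −1.0008). The adjusted p against pSC18 ran from 0.000380 to 0.0387 over all alternatives. Zm00001eb076630 had 10.9 to 19.7 FPKM in SC and 18.1 to 26.8 in pSC24, which overlap, and was not called.

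**Figure D4:**
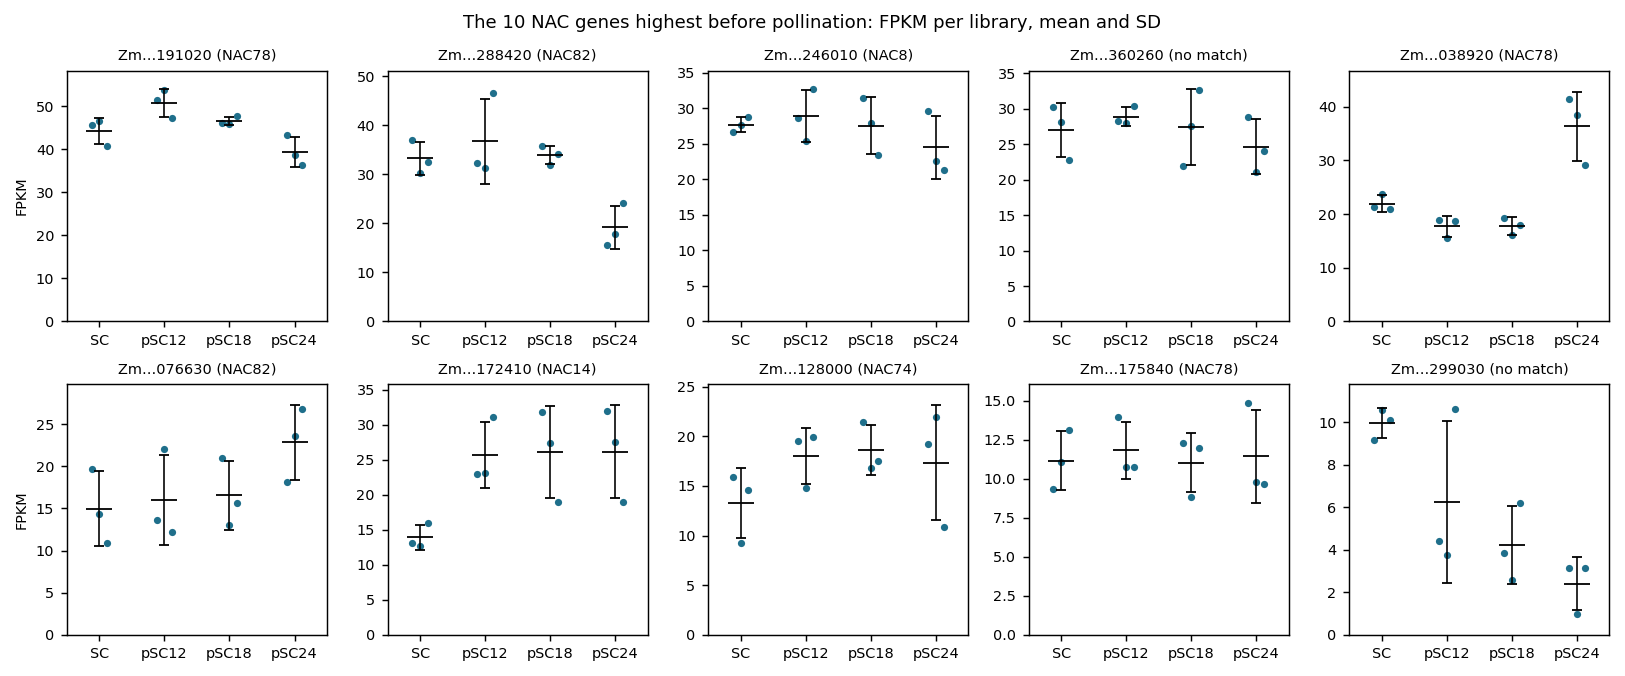
FPKM of the 10 NAC genes with the highest mean before pollination in each library (points), with the stage mean (bar) and SD (whiskers, n = 3) on linear axes from 0. Panels give the last digits of the identifier and the best match. Zm00001eb191020, Zm00001eb246010, Zm00001eb360260 and Zm00001eb175840 are nearly level, Zm00001eb038920 is higher and Zm00001eb288420 lower in pSC24, and Zm00001eb172410 is higher from pSC12 on.

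Of the 27 genes without a best match, 2 had a stage mean above 1 FPKM and 23 had 0 counts. Zm00001eb360260, on chromosome 8 from 154504013 to 154505584, was among the 10 highest NAC genes in SC, with 30.2, 28.1 and 22.8 FPKM there, 28.3, 28.0 and 30.4 in pSC12, 22.0, 27.5 and 32.7 in pSC18 against 28.9, 21.2 and 24.0 in pSC24. The stages overlapped and none differed by the test. The next NAC gene, 2567 bases away, had 0 counts in all libraries.

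Zm00001eb299030, on chromosome 7 from 2715578 to 2716525, was the only NAC gene called lower with the main settings. It had 9.18, 10.6 and 10.1 FPKM in SC, 4.39, 3.74 and 10.6 in pSC12, 3.86, 2.57 and 6.20 in pSC18, then 3.14, 0.957 and 3.12 in pSC24. All pSC18 and pSC24 libraries lay below those of SC, while pSC12 replicate 3 was at the SC level. The gene fell by 2.06 on the log2 scale from SC to pSC24 (SE 0.54, adjusted p = 0.0129). With a term for the mapping set and with the lower set alone the call was lost at a log2 fold change of −1.66. Both take the pSC24 level from replicate 1. With each library left out in turn the adjusted p ran from 0.00835 to 0.0409, and the lowest over all alternatives was 0.00137.

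Of the 23 undetected genes without a best match, 19 lie in 3 groups. On chromosome 10, 11 of them stood between 6897837 and 7229414 and 4 between 79958574 and 80277710, all with 0 counts. On chromosome 1, 4 of 5 between 301325609 and 301510391 had 0 counts, and the other had 4 counts in a single SC library. How reads shared by near-identical copies were counted is not given in the sources used here, so 0 counts do not show that such genes were silent.

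The last of the 10 highest genes in SC was Zm00001eb128000, named after rice NAC74, with 9.25 to 15.9 FPKM in SC, 14.8 to 19.9 in pSC12, 16.8 to 21.5 in pSC18, then 10.9 to 22.0 in pSC24. It was not called, and it overlaps a gene on the other strand over 1349 bases, whose highest stage mean was 7.24 FPKM. Among expressed stress-related names, the NAC2-like gene Zm00001eb062170 scattered widely, with 5.01, 0.682 and 9.17 FPKM within pSC18, and overlaps a gene of up to 63.2 FPKM on the other strand. The genes matching rice NAC48 (OsNAC6, a stress-induced factor), Zm00001eb145580 and Zm00001eb288360, stayed under 1.63 FPKM as stage means.

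Among NAC genes with counts at a stage and a stage mean above 1 FPKM at any stage, replicate 3 was the highest of the pSC12 libraries for 20 of 39 (51.3%, beside 37.0% of all such rows). In pSC18 it was the highest for 19 of 42 (45.2%, beside 36.3%) and in pSC24 for 12 of 45 (26.7%, beside 40.0%).

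Genes that act with NAC factors in other species were examined as lists. Alternative oxidase, a mitochondrial enzyme whose gene is a target of NAC17 in Arabidopsis, is encoded by 6 rows, of which 3 were tested. Of these, 1 was called, higher in pSC24 against SC, beside 10.3% of all genes. This gene, Zm00001eb071890, had 67.6, 38.3 and 51.2 FPKM in SC, 65.3, 71.8 and 74.4 in pSC12, 70.9, 89.1 and 110.9 in pSC18 against 177.0, 216.6 and 129.7 in pSC24. It was higher in pSC24 than in SC by 1.72 on the log2 scale (SE 0.23, adjusted p = 0.000166), with no overlap.

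The RST domain is shared by RCD1, SRO and TAF4 proteins, and RCD1 binds NAC factors in Arabidopsis. Of 9 genes with this domain 8 were tested, with a median log2 fold change of 0.41 in pSC24 against pSC18, beside −0.01 over all genes, and of −0.08 in pSC24 against SC, beside 0.05. The SRO1-like gene Zm00001eb025040 rose, from 4.18, 3.89 and 5.15 FPKM in SC and 7.47, 7.93 and 2.92 in pSC18 to 13.1, 17.5 and 16.5 in pSC24 (log2 fold change 1.35 against pSC18, SE 0.30, adjusted p = 0.0106). The TAF4b-like gene Zm00001eb020720 was called lower against pSC18 (−1.39, SE 0.37, adjusted p = 0.0267), and TAF4b is a subunit of the general transcription factor TFIID.

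Stay-green proteins start chlorophyll breakdown, and their genes are targets of senescence NAC factors in Arabidopsis. Of 3 genes 2 were tested, and both were called higher in pSC24 than in pSC18 and than in SC, beside 4.82% and 10.3% of all genes. Zm00001eb319560 had 0.958, 0 and 0.742 FPKM in SC and 13.8, 10.2 and 29.2 in pSC24 (log2 fold change 4.93, SE 1.13, adjusted p = 0.00615). Zm00001eb103480 had 0, 3 and 0 counts in SC, 15, 15 and 31 in pSC18, then 484, 164 and 960 in pSC24 (adjusted p = 0.0412 for pSC18 and 0.000229 for pSC24, each against SC).

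All 6 of the KIL and NAC087-like genes left out of the set were called higher in pSC24, against pSC18 and against SC, beside 4.82% and 10.3% of all genes. In pSC18 against SC 2 of 6 were called higher, beside 2.71%. The NAC87-like Zm00001eb330910, the highest of them, had 0.398, 0 and 0 FPKM in SC and 144.7, 131.3 and 133.0 in pSC24. The study examined these genes in the same libraries, so their direction is not independent evidence.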

How the data were processed

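RNA of synergid cells was measured in 12 libraries, 3 per stage, grouped by the sample titles. The authors cleaned the reads with cutadapt 1.15, mapped them with HISAT2 2.0.5 to the maize assembly AGPv5 (NAM-5.0) and assigned them to genes with featureCounts 1.5.0-p3. The authors deposited whole-number counts and, separately, FPKM values. The deposited FPKM equal the counts divided by gene length, the DESeq2 size factor and the geometric mean of the library totals (checked: 100% of values above 0 lay within 1%). No per-sample column was left unused for lack of a sample.

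Counts were tested with edgeR 4.0.16 (quasi-likelihood, TMM scaling, edgeR's low-count filter, stage as the only term, all 12 libraries, R 4.3.3, limma 3.58.1), with Benjamini-Hochberg adjustment inside each comparison. A fold against a stage with at most 3 counts in each library is a lower bound set at 3 counts per library. Alternatives were DESeq2 1.42.0, other scalings, no filter, fits on 6 libraries, terms for replicate number or mapping set, and each library left out in turn. The mapping sets follow the library statistics of the study. The fit on the lower mapping set alone, and fold bounds without a pSC24 library, were chosen after seeing the data. The script was tested on simulated data.

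The rule named genes called in at least 1 comparison with at least 5 FPKM in the highest stage, the 10 highest in SC, and the 5 most even uncalled genes of at least 5 FPKM in each stage (Zm00001eb175840, Zm00001eb360260, Zm00001eb246010, Zm00001eb191020 and Zm00001eb399930). Other genes are named for their best match or a call, after their values were seen. Parts of the rule that needed protein sequences could not be applied. The members and lists were chosen with earlier results of these data known.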

Additional observations from a re-analysis of the deposited data

How the results depend on the processing

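Among the genes named by the rule or called, no difference changed direction where it was called with the main settings or in that alternative. Sign changes of differences called in neither were not tallied. For the 21 genes named by the rule or called, 1981 values over the comparisons and alternatives kept their side of the threshold, 18 gained and 42 lost it. Over all tested NAC genes, 33 calls in 12 genes were gained in some alternative. With scaling by total counts 2 NAC genes were called higher in pSC12 against SC and 2 in pSC18 against SC. With DESeq2 the counts were 1 lower in pSC12 against SC, 1 higher in pSC18 against pSC12 and 2 lower in pSC24 against SC. The mapping-set term and the lower mapping set alone both take the pSC24 level from replicate 1, so their counts of calls rest on 1 library at that stage. The count of genes higher in pSC24 than in SC was at most 11 under these alternatives, against 9 with the main settings. Against pSC18 the count was at most 8, against 7 with the main settings. In both comparisons the lowest count was smaller than with the main settings, but it rests on 1 pSC24 library and is not given.

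With each library left out in turn, the counts ran from 0 to 1 lower in pSC12 against SC, from 4 to 7 higher and 0 to 1 lower in pSC24 against pSC18, from 0 to 1 higher in pSC18 against SC, and from 7 to 10 higher and 1 to 3 lower in pSC24 against SC. The gene lower in pSC12 was Zm00001eb095110 without pSC12 replicate 3, and Zm00001eb079630 without pSC24 replicate 2 or pSC24 replicate 3. The pSC18 call of Zm00001eb317060 was lost without SC replicate 1, 2 or 3 or pSC18 replicate 2 or 3.

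Replicate numbers gave no clear pairing of the libraries. Correlations of same-numbered deviations ran from −0.06 to 0.09, and those of other pairs from −0.11 to 0.04, with 6 of 12 libraries closest to their own number. The highest were between pSC18 and pSC24, at 0.091 for replicate 2 and 0.075 for replicate 3. The check does not settle whether libraries of these stages were paired. With a replicate block, 6 genes were called higher in pSC24 against pSC18 instead of 7, and the counts of the other comparisons stayed the same. Genes with few counts limit what can be seen: 102 of the 151 NAC genes could not be tested.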
